A study of Mus musculus with 58 samples.

Results

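The RNA of 10 genes of the bone morphogenetic protein (BMP) pathway was followed in hematopoietic stem cells (HSCs) of mice on different diets and after knockdown of one of the receptors, together with histone marks, open chromatin and PU.1 binding at their promoters. The genes were taken by their symbols, 10 of the 55376 genes in the count data, and all 10 were found: the ligand Bmp4, the type I receptors Bmpr1a and Acvr1, the type II receptor Bmpr2, the receptor-activated Smads Smad1 and Smad5, the inhibitory Smad6, and the targets Id1, Id2 and Id3. The diet experiment held 22 RNA-seq libraries of LSK CD34- Flk2- CD150+ HSCs from male C57BL/6 mice in 6 groups. OAL mice were old (24–26 months) and fed ad libitum, OCR mice were old and under lifelong 40% calorie restriction (CR), and OCRRF mice were OCR mice given free access to food for 4 weeks. YAL, YCR and YCRRF were the young counterparts (3–4 months), in which CR was short, 20% in the first week and then 40% for 3 weeks, with refeeding for 4 weeks in YCRRF. OCRRF had 2 libraries and every other diet group had 4.

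The knockdown experiment held 12 RNA-seq libraries of aged HSCs that had taken up a lentiviral shRNA, spent 20–24 hours in culture and then engrafted in lethally irradiated young female recipients, from which LSK CD48- CD150+ donor cells carrying the reporter were sorted again. It had 4 libraries with an shRNA against Kdr (the VEGF receptor 2) and a GFP reporter, 2 with a scramble shRNA and GFP, 2 each with the Kdr shRNA plus Bmpr1a shRNA1 or shRNA2 in an mCherry vector, and 2 with both scramble vectors. Both Bmpr1a hairpins were used with a single Kdr hairpin, so every knockdown library carries the same one. The study chose Kdr and Bmpr1a for knockdown from a published list of genes that rise with age in HSCs. Its grounds were the gain in H3K27me3 in OCR HSCs and the RNA of these same diet libraries. It also pointed to similar changes at Bmp4. The levels of these genes with diet and age, their histone marks and counts that include them are thus not independent of that choice. Of the chromatin assays, 4 OCR and 2 OCRRF libraries of ATAC-seq, 2 OCR libraries each of H3K4me3 and H3K27me3 and 2 PU.1 ChIP-seq libraries each of OAL, OCR and OCRRF were used here. The study counts the RNA-seq replicates of all diet groups, old and young, as mice. For the knockdown and chromatin libraries no source used here ties a library to its own mouse. The p-values there measure the spread between these samples, which may be technical.

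BMP ligands bind a pair of type I and type II receptor kinases, the type II receptor switches on the type I receptor, and the type I receptor phosphorylates Smad1 and Smad5, which enter the nucleus with Smad4. Smad6 inhibits this step and is itself a target, as are the Id genes. Id proteins lack a DNA-binding region and hold back E proteins, the helix-loop-helix factors that drive lymphoid genes, and Id2 is known for its part in innate lymphoid cell development.

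The promoters of Bmpr1a, Bmp4 and Id2 are shown because these 3 genes differed between OCR and OAL, and that of Id3 because the PU.1 peak nearest to any of the 10 genes covers most of it. Each is 300 bases, from 250 bases before to 50 after the RefSeq transcription start site (TSS), written along the strand of the gene (GRCm38.p6). Capitals mark the Smad1 and Smad5 motifs GGCGCC and GGAGCC, the Smad box CAGAC and the E box CACCTG, on either strand. The windows are chr14:34502497-34502796 on the minus strand for Bmpr1a, chr14:46390620-46390919 on the minus strand for Bmp4, chr12:25096043-25096342 on the minus strand for Id2 and chr4:136143572-136143871 on the plus strand for Id3.
Bmpr1a: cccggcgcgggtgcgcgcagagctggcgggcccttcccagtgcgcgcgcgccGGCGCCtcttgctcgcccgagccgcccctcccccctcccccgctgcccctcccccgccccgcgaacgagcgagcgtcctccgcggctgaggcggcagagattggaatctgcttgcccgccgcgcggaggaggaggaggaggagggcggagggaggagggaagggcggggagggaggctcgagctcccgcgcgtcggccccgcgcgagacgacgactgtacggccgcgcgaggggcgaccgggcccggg
Bmp4: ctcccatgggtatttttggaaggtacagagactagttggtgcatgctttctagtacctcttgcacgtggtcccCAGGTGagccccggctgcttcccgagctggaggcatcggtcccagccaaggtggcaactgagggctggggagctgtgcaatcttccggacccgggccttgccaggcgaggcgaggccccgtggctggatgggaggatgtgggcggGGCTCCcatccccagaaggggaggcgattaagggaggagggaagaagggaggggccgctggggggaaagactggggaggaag
Id2: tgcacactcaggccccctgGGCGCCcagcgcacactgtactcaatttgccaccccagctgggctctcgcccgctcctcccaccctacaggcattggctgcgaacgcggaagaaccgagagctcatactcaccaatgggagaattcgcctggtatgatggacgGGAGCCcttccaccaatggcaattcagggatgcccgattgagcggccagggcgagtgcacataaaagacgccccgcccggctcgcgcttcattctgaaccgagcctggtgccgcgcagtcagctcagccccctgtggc
Id3: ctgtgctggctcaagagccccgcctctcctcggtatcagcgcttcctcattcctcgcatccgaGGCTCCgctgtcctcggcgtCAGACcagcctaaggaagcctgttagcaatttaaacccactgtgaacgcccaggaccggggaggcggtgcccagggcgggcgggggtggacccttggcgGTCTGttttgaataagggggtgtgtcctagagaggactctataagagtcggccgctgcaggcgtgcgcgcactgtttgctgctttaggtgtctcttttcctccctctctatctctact

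RefSeq promoters were found for 9 of the 10 genes, all but Id1. The Bmpr1a promoter held 48 CpGs and 79.3% G and C, against medians of 7 and 52.7% over 32851 promoters. GGCGCC stood in the promoters of Bmpr1a, Bmpr2, Id2 and Smad5, and in 11.9% of all promoters. GGAGCC stood in those of Acvr1, Bmp4, Id2, Id3, Smad5 and Smad6, and in 30.8% of all promoters. Id2 and Smad5 held both, in Id2 at -231 and -88 bases from the start. CAGAC, found in 49.6% of promoters, was in Id3 and in Smad5, and CACCTG, found in 20.2%, was in Bmp4. The PU.1 motif GAGGAAGT, in 3.20% of promoters, was in none of the 9. No searched motif overlapped another in these windows. A match in letters is a description of the window and not a site.

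Depth was 11102898 to 36579392 counted reads per diet library and 35657999 to 44780217 per knockdown library. Levels are given as CPM, counts scaled to the size of the library with TMM factors, separately for the diet and the knockdown experiment. All 10 HSC markers looked up, among them Kit, Procr and Hlf, were at or above 1 CPM on average in every group. The summed level of 1736 odorant and pheromone receptor genes, which HSCs are not known to use, was 530 to 1486 CPM in old, 66.5 to 474 CPM in young and 21.5 to 42.1 CPM in knockdown libraries, with both OCRRF libraries at or above 1161 CPM. Their part in the results was not tested.

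In old ad libitum HSCs, the levels per kilobase of exon were highest for Id2 (22.8 ± 2.11 CPM per kb, SD, n = 4), Smad1 (20.0 ± 0.960) and Smad5 (14.8 ± 1.56). Bmp4 followed at 11.5 ± 2.23 and Bmpr1a at 5.91 ± 1.18 CPM per kb. Smad6 (2.54 ± 0.605), Bmpr2 (2.36 ± 0.0833) and Acvr1 (2.03 ± 0.498) were lower, and Id1 (1.42 ± 0.537) and Id3 (0.567 ± 0.0656) lowest. The receptor genes above had a median of 0.109 CPM per kb in these libraries. In young ad libitum HSCs the order differed most for Bmpr1a and Id1, and Acvr1 and Bmpr2 exchanged places: Bmpr1a was at rank 9 with 1.35 ± 0.758 CPM per kb and Id1 at rank 5 with 6.03 ± 1.37 CPM per kb.

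**Figure D1:**
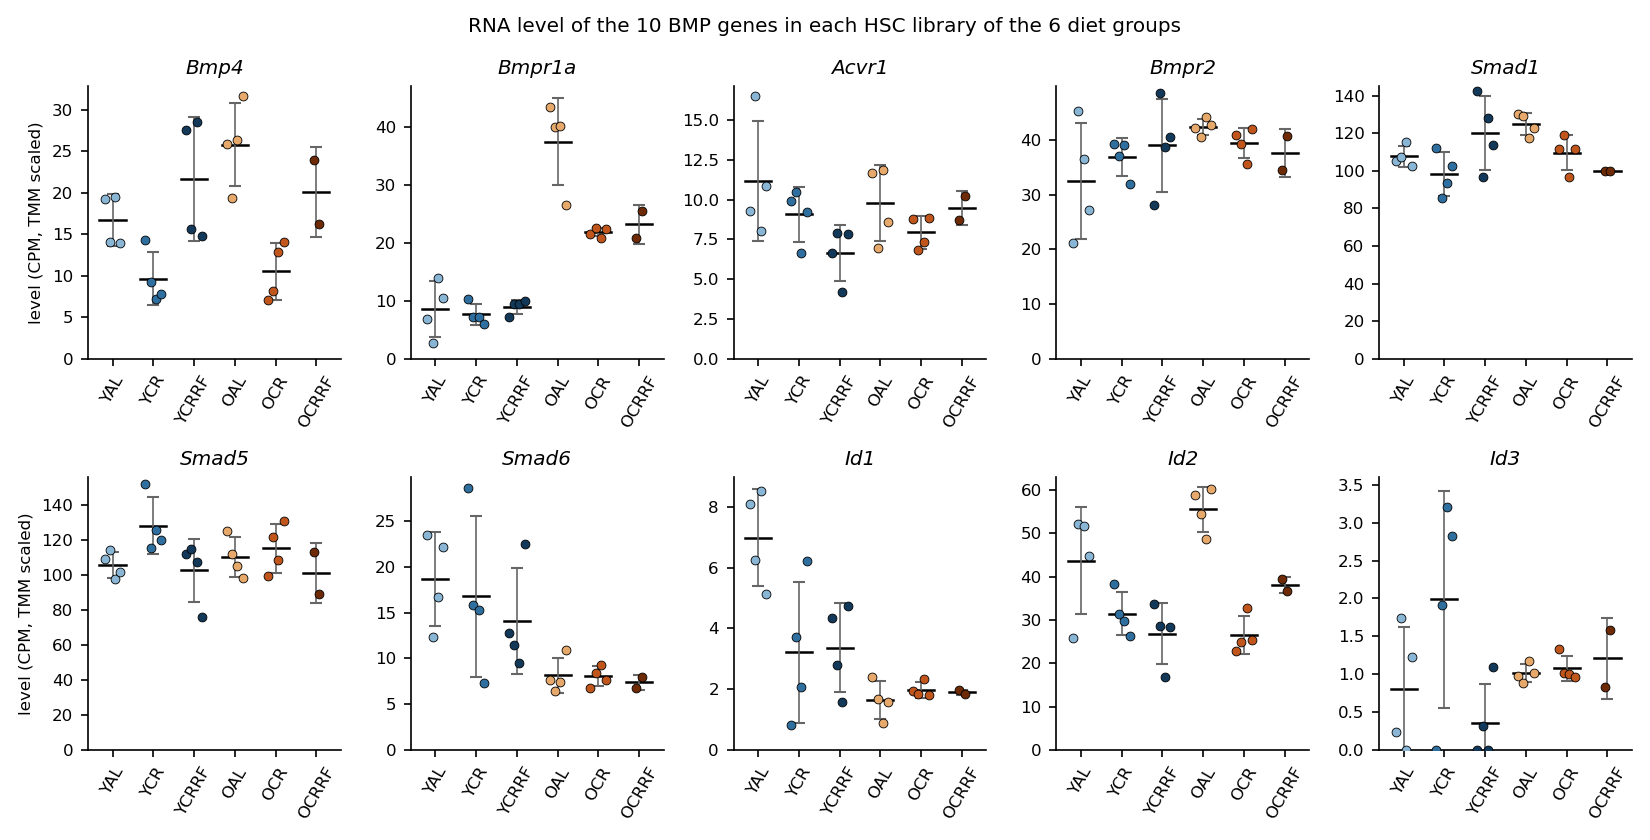
RNA level of each of the 10 genes (y axis, CPM after TMM scaling) in each library of the 6 diet groups (x axis); points are libraries, bars the mean and whiskers the SD. Bmpr1a lies at 26.5 to 43.4 CPM in OAL, 20.9 to 22.5 CPM in OCR and at or below 14.0 CPM in the young groups.

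Lifelong CR was first compared with ad libitum feeding in old mice. Bmp4, Bmpr1a and Id2 were lower in OCR than in OAL HSCs, while the other 7 genes did not pass the test. A gene was called when its adjusted p (edgeR quasi-likelihood test over all genes, Benjamini-Hochberg) was below 0.05 and its fold change above 1.2. By this rule 3 of 10 genes were called, all lower, against 5.57% of the 27150 genes tested. The median log2 fold change of the 10 was -0.13, beside 0.02 over all genes.

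Bmp4, the ligand, was at 25.9, 19.4, 26.4 and 31.6 CPM in the OAL libraries and at 7.02, 8.19, 12.9 and 14.0 CPM in the OCR libraries. The groups did not overlap. Bmp4 was 2.42-fold lower in OCR (log2 fold change -1.28 ± 0.17 SE, adjusted p = 9.71e-06 by edgeR). Reads of the antisense gene Gm15222, which lies within Bmp4, amounted to 0.700 to 1.71 CPM in OAL and 0.233 to 1.02 CPM in OCR, and whether counting used the strand is not stated, so reads of the pair cannot be told apart.

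Bmpr1a, the type I receptor that was later knocked down, was at 43.4, 40.0, 40.1 and 26.5 CPM in OAL and at 21.6, 22.5, 20.9 and 22.4 CPM in OCR. All 4 OCR libraries were below the lowest OAL library, replicate 4, and lay close together. The level was 1.70-fold lower in OCR (log2 fold change -0.76 ± 0.12 SE, adjusted p = 6.58e-05 by edgeR). In 1 fit of all 6 diet groups the difference was as large (log2 fold change -0.78), but not called (adjusted p = 0.683). The antisense gene Gm17110, which overlaps the start of Bmpr1a, was at 1.24 to 1.65 CPM in OAL and at 0.717 to 1.17 CPM in OCR, and the same limit on strand holds. The other receptors were not called: Acvr1 had means of 9.78 ± 2.40 CPM in OAL and 7.96 ± 1.04 CPM in OCR (SD, n = 4 each), and Bmpr2 had 42.5 ± 1.5 and 39.5 ± 2.78 CPM.

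The receptor-activated Smads carry the signal to the nucleus and neither was called. Smad1 was at 130, 129, 117 and 123 CPM in OAL and at 112, 119, 97.0 and 111 CPM in OCR, where the ranges overlapped. Smad5 had means of 110 ± 11.6 and 115 ± 13.9 CPM. The inhibitory Smad6 was at 8.14 ± 1.94 CPM in OAL and 8.04 ± 1.09 CPM in OCR.

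Of the Id targets only Id2 was called. It was at 58.9, 54.4, 48.8 and 60.1 CPM in OAL and at 22.9, 25.0, 32.9 and 25.4 CPM in OCR, with a wide gap between the groups. Id2 was 2.07-fold lower in OCR (log2 fold change -1.05 ± 0.11 SE, adjusted p = 1.00e-07 by edgeR). Id1, at 0.886 to 2.41 CPM in OAL and 1.80 to 2.34 CPM in OCR, and Id3, at 0.891 to 1.17 CPM in OAL and 0.959 to 1.33 CPM in OCR, were low, with 28 to 44 reads of Id3 in each old library. Bmp4, Bmpr1a and Id2 remained called without any single library of the 8.

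In bulk samples, fewer cells of a type and less RNA per cell cannot be told apart. Among the HSC markers, Ly6a, Procr and Fgd5 were lower in OCR, with log2 fold changes of -0.50 to -0.46, and Ctnnal1 was higher, and the list summed to 4064 to 4716 CPM in OAL and 3531 to 4262 CPM in OCR. Of 8 markers of endothelium, a cell type that also uses BMP signalling, Emcn alone was called, lower in OCR. By edgeR 5 of the 8 were at an unadjusted p below 0.05, beside 16.2% of all genes. Log2 fold changes of the 8 ran from -0.83 to 0.43. The summed level was 393 to 426 CPM in OAL and 302 to 364 CPM in OCR. Tie1 was the highest, with means of 291 CPM in OAL and 246 CPM in OCR. Cdh5 and Sox17 were below 1 CPM on average in both groups, though no marker was at 0 in all libraries. Of 7 erythroid markers, 3 (Hba-a1, Hba-a2 and Hbb-bs) were lower and Epor was higher in OCR, with a sum of 44.5 to 227 CPM in OAL and 46.6 to 79.2 CPM in OCR. The part of these cells in the result was not tested. Of 8 stromal, 6 B cell, 5 T cell and 5 megakaryocyte markers none was called by edgeR (2 megakaryocyte markers were at an unadjusted p below 0.05), and of 10 granulocyte and monocyte markers Prtn3 alone was called, lower, while the other 9 had positive values from 0.02 to 1.5 on the log2 scale and 4 of the 10 were at an unadjusted p below 0.05.

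**Figure D2:**
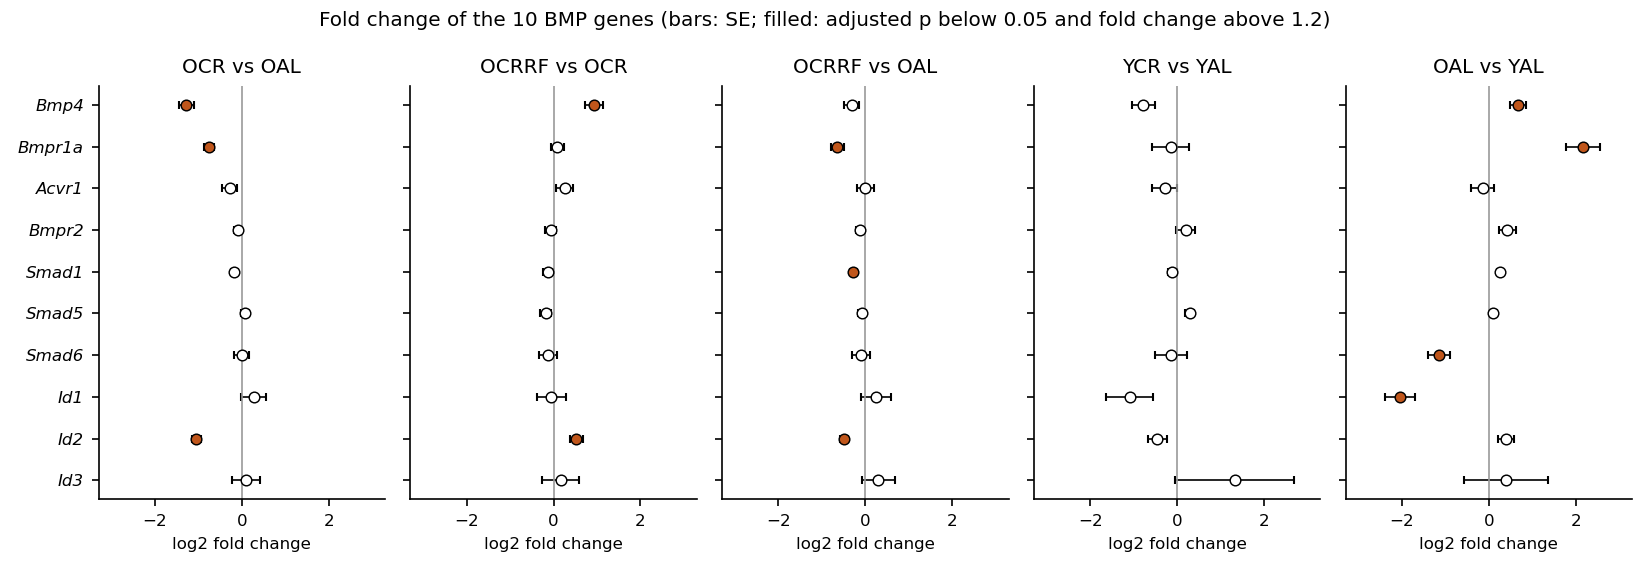
Log2 fold change of each of the 10 genes (x axis) in 5 comparisons of the diet groups, the first-named group against the second; whiskers are the SE and filled points passed the test. Bmp4, Bmpr1a and Id2 are filled and left of 0 in OCR vs OAL, and Bmpr1a lies at 2.18 in OAL vs YAL.

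Refeeding after lifelong CR was compared with OCR and with OAL. Bmp4 and Id2 rose on refeeding, while Bmpr1a was not called against OCR and was lower than in OAL. Against OCR, 2 of 10 genes were called, both higher, with 3.41% of 32577 genes called in all. Bmp4 was at 23.9 and 16.2 CPM in OCRRF, above all 4 OCR libraries, and was 1.92-fold higher (log2 fold change 0.94 ± 0.20 SE, adjusted p = 0.00387 by edgeR). Id2 was at 39.4 and 36.8 CPM, also above every OCR library, and was 1.44-fold higher (log2 fold change 0.52 ± 0.14 SE, adjusted p = 0.0314 by edgeR). These calls depended on single libraries. Without OCRRF replicate 1 neither was called (Bmp4 log2 fold change 0.61, edgeR adjusted p = 0.340), and without OCRRF replicate 2 or OCR replicate 1, 2 or 4 only Bmp4 was called, with Id2 at an adjusted p of 0.0628 to 0.108.

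Bmpr1a was at 20.8 and 25.6 CPM in OCRRF, a range that holds that of OCR. Against OAL, 3 of 10 genes were called in OCRRF, all lower, with 4.14% of 31816 genes called in all. Bmpr1a was 1.56-fold lower than in OAL (log2 fold change -0.64 ± 0.16 SE, adjusted p = 0.0348 by edgeR). Id2 was 1.41-fold lower (log2 fold change -0.49 ± 0.098 SE, adjusted p = 0.0210 by edgeR). Smad1, at 99.7 and 100 CPM in OCRRF, was 1.21-fold lower (log2 fold change -0.27 ± 0.073 SE, adjusted p = 0.0443 by edgeR). The median of all genes was 0.12 on the log2 scale in this comparison and 0.26 when TMM used genes of at least 5 CPM only, where none of the 3 was called. None was called without OCRRF replicate 1, OCRRF replicate 2 or OAL replicate 2, 1 without OAL replicate 1 or 3 (Id2) and 1 without OAL replicate 4 (Bmpr1a).

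Short CR in young mice was compared with YAL. None of the 10 genes was called by edgeR, with 0.364% of 18680 genes called in all, and DESeq2 called none. At an unadjusted p below 0.05, 2 of the 10 passed, beside 9.29% of all genes: Bmp4, with lower values, and Smad5, with higher ones, both named after their values were seen. Bmp4 was at 19.3, 14.0, 19.5 and 13.9 CPM in YAL and at 14.3, 9.18, 7.24 and 7.82 CPM in YCR, where only YCR replicate 1 reached the YAL range. Bmpr1a was already low, at 6.90, 2.77, 14.0 and 10.5 CPM in YAL and at 10.3, 7.14, 7.19 and 5.96 CPM in YCR, and the groups overlapped. Id2 was at 25.8, 52.2, 51.7 and 44.8 CPM in YAL and at 38.3, 31.4, 29.9 and 26.4 CPM in YCR, and YAL replicate 1 lay below all YCR libraries. Id1 was at 8.09, 6.25, 8.51 and 5.12 CPM in YAL and at 0.835, 3.72, 2.07 and 6.22 CPM in YCR, where replicate 4 lay within the YAL range. Id3 ranged from 0 to 3.21 CPM over the young libraries, with 0 to 88 reads, and no order can be read from it.

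After young refeeding, none of the 10 was called against YCR (0.0102% of 19535 genes called, 1 of the 10 at an unadjusted p below 0.05, beside 7.27% of all genes) and none of the 9 tested against YAL (0% of 19334 genes called, 2 of the 9 at an unadjusted p below 0.05, beside 3.69% of all genes, none by DESeq2). DESeq2 called Bmp4 against YCR, as did 1 fit of all 6 diet groups. YCRRF replicate 3 stood apart from its group. The chi-square of its counts per degree of freedom was 153 to 336 against the other YCRRF libraries, which had 28.4 to 56.4 among themselves. Without this replicate no member was called against YCR or YAL by edgeR either. Bmp4 was at 27.6, 15.7, 28.6 and 14.8 CPM in YCRRF, all 4 above the YCR libraries. Id2 was at 33.7, 28.6, 16.9 and 28.3 CPM in YCRRF and overlapped YCR.

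Whether the response to CR differed between old and young mice was tested as an interaction. No gene of the 10 was called (0.0318% of 28328 genes called by edgeR, none of the 10 by DESeq2). Id2, named here after its values were seen, was the only one at an unadjusted p below 0.05, beside 8.80% of all genes. The difference in response, old minus young, had a 95% interval from -1.48 to 0.24 on the log2 scale for Bmpr1a, from -1.20 to 0.20 for Bmp4 and from -1.09 to -0.094 for Id2, before adjustment. Lifelong and short CR also differ in length, which cannot be told apart from age.

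Age was compared in ad libitum mice. Bmpr1a and Bmp4 were higher and Smad6 and Id1 lower in OAL than in YAL HSCs. This was 4 of 10 genes, with 14.8% of 23525 genes called in all. Bmpr1a was 4.52-fold higher in OAL (log2 fold change 2.18 ± 0.39 SE, adjusted p = 0.00606 by edgeR), and its lowest old library, at 26.5 CPM, lay above the highest young one, at 14.0 CPM. Bmp4 was 1.60-fold higher (log2 fold change 0.68 ± 0.19 SE, adjusted p = 0.0377 by edgeR), although OAL replicate 2, at 19.4 CPM, lay within the YAL range.

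The 2 genes that were lower, Smad6 and Id1, are targets of the pathway. The targets Id2 and Id3 were not called and had positive log2 fold changes, with overlapping ranges. Id2 was at 48.8 to 60.1 CPM in OAL and at 25.8 to 52.2 CPM in YAL. Id3 was at 0.891 to 1.17 CPM in OAL and at 0 to 1.74 CPM in YAL. Smad6, the inhibitor, was at 7.66, 6.49, 7.47 and 10.9 CPM in OAL and at 23.4, 12.4, 16.7 and 22.2 CPM in YAL, without overlap, and was 2.22-fold lower in OAL (log2 fold change -1.15 ± 0.25 SE, adjusted p = 0.0131 by edgeR). Id1 was at 2.41, 1.69, 0.886 and 1.59 CPM in OAL, below all YAL libraries, and was 4.12-fold lower (log2 fold change -2.04 ± 0.35 SE, adjusted p = 0.00477 by edgeR). Without OAL replicate 1 only Bmpr1a and Id1 were called, with Smad6 at an adjusted p of 0.0522 and Bmp4 at 0.0966. Bmp4 was also lost without OAL replicate 3 or 4 or YAL replicate 2 or 4, at adjusted p values from 0.0574 to 0.129. Old and young libraries also differ in the summed receptor level given above, and markers of other cells moved with age. Of 7 stromal markers tested Col1a2 and Pdgfra were higher and none lower in OAL, with sums of 35.3 to 38.4 CPM against 17.7 to 30.1 CPM in YAL. Of 6 B cell markers 4 were lower, of 10 granulocyte and monocyte markers 2 were lower and 1 higher, of 7 erythroid markers Klf1 and Epor were lower, and of 8 endothelial markers Egfl7 was lower. Cd3e, of T cells, and Itga2b, of megakaryocytes, were higher. Their part in the result was not tested.

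Over the 6 diet groups, Bmpr1a fell into 3 steps: OAL above OCRRF and OCR, and these above the 3 young groups, with no overlap at either step and overlapping ranges within each. Id1 was highest in YAL, with a gap to YCRRF, and the next 5 groups overlapped their neighbours. For Bmp4, Id2, Acvr1, Bmpr2, Smad5, Smad6 and Id3 each group overlapped its neighbour in the order of means. For Smad1 only YAL and OCRRF, neighbours in the order, did not overlap. The upper step of Bmpr1a lay between 26.5 CPM in OAL replicate 4 and 25.6 CPM in OCRRF replicate 2, and OCRRF had 2 libraries. The share of all genes with such gaps was not counted, so the steps and gaps are a description of these values only.

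The other genes of the pathway were taken from a list of 59 ligands, receptors, Smad partners, antagonists and targets. In OCR against OAL 3 of the 50 tested were called, all lower, near the 5.57% of all genes, with a median of 0.01 on the log2 scale beside 0.02 over all genes. Eng, a co-receptor for BMP ligands, was at a log2 fold change of -0.34 ± 0.083 SE (adjusted p = 0.00970 by edgeR). Smad7, an inhibitory Smad like Smad6, had -0.42 (SE 0.10, edgeR adjusted p = 0.0107), and Junb, a transcription factor gene that responds to BMP, had -0.60 (SE 0.11, edgeR adjusted p = 0.000862). In OCRRF 2 rose and 1 fell of 57 against OCR (3.41% of all genes called), and 3 of 55 were lower than in OAL (4.14% of all genes). In YCR 1 of 30 was lower than in YAL (0.364% of all genes). After young refeeding none was called against YCR (3 of 30 at an unadjusted p below 0.05, beside 7.27% of all genes) or YAL (3 of 31, beside 3.69%). With age 6 of 43 were higher and 3 lower, beside 14.8% of all genes called. None of the 51 tested was called for a difference between the old and young responses to CR (10 at an unadjusted p below 0.05, beside 8.80% of all genes). Of the 3 E-protein genes that Id proteins bind, Tcf3, Tcf4 and Tcf12, none was called in OCR against OAL, and Tcf3 was lower in OAL than in YAL (log2 fold change -0.46 ± 0.078 SE, adjusted p = 0.00495 by edgeR).

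Knockdown libraries were compared with their own scramble controls, the targeted genes first. Kdr was at 6.03 and 6.03 CPM with the scramble shRNA and at 1.93, 2.22, 3.29 and 2.03 CPM with the Kdr shRNA, without overlap. The fold change was -1.35 on the log2 scale (SE 0.25), with an edgeR adjusted p of 0.247 and a DESeq2 adjusted p of 0.00347. With both shRNAs Kdr was at 3.96 and 4.63 CPM in the scramble libraries, 1.24 and 0.558 CPM with Bmpr1a shRNA1 and 1.60 and 1.35 CPM with shRNA2 (log2 fold change -1.86 ± 0.37 SE, adjusted p = 0.272 by edgeR, DESeq2 adjusted p = 0.00568).

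Bmpr1a varied widely within the groups. It was at 5.19 and 4.44 CPM in the double scramble libraries, 4.44 and 0.660 CPM with Bmpr1a shRNA1 and 2.22 and 0.593 CPM with shRNA2, so shRNA1 replicate 1 was at the level of a control. The log2 fold change was -1.29 (SE 0.72, edgeR adjusted p = 0.602), with a 95% interval from -2.69 to 0.12 before adjustment. The lower Bmpr1a RNA was thus not resolved from the spread between libraries. With the Kdr shRNA alone Bmpr1a was at 1.67, 3.74, 8.00 and 7.66 CPM, around the scramble values of 8.27 and 4.34 CPM (log2 fold change -0.26 ± 0.55 SE, adjusted p = 0.913 by edgeR). Without Kdr shRNA replicate 1 the sign turned, to 0.03, and without scramble replicate 1 to 0.27.

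**Figure D3:**
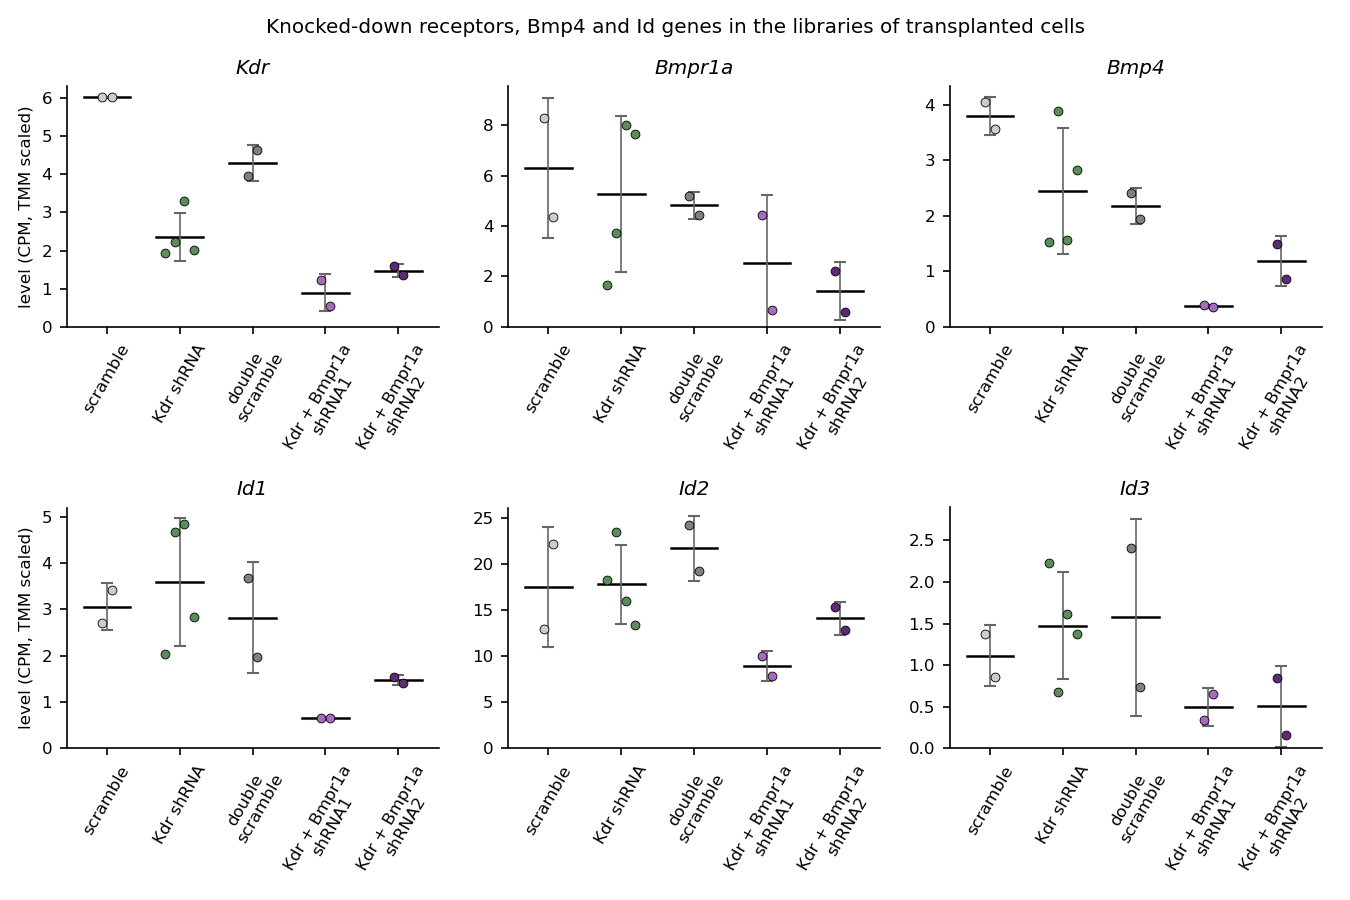
RNA level (y axis, CPM after TMM scaling) of Kdr, Bmpr1a, Bmp4 and the Id genes in each library of the knockdown experiment (x axis: shRNA); points are libraries, bars the mean and whiskers the SD. All 4 double knockdown libraries lie below both double scramble libraries for Bmp4, Id1 and Id2, none of which was called by edgeR.

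The ligand and the Id targets had lower values in the double knockdown libraries, but none of the 10 genes was called by edgeR (0.00498% of 20072 genes called). Bmp4 was at 2.41 and 1.95 CPM in the double scramble libraries, 0.393 and 0.355 CPM with shRNA1 and 1.5 and 0.863 CPM with shRNA2. Id1 was at 3.67 and 1.97 CPM in the scramble libraries, 0.646 and 0.660 CPM with shRNA1 and 1.55 and 1.40 CPM with shRNA2. Both genes had no overlap between knockdown and scramble, and the shRNA1 libraries were the lowest. The share of all genes without such overlap was not counted, so the gaps are a description of these values only.

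Id2 was at 24.2 and 19.2 CPM in the scramble libraries, 10.1 and 7.81 CPM with shRNA1 and 15.4 and 12.8 CPM with shRNA2. Id3 was at 2.41 and 0.740 CPM in the scramble libraries, 0.337 and 0.660 CPM with shRNA1 and 0.848 and 0.162 CPM with shRNA2, where shRNA2 replicate 1 overlapped. At an unadjusted p below 0.05 with a fold change above 1.2, the threshold the study used for the Kdr knockdown, these 4 genes passed, all lower, beside 6.71% of all genes, and DESeq2 called Id2 after adjustment. Markers of other cells varied in the same libraries, though none was called. All 6 stromal markers tested had lower values in the double knockdown (median log2 fold change -2.22, 2 at an unadjusted p below 0.05), with sums of 11.2 to 24.8 CPM against 28.8 to 32.5 CPM in the scramble libraries. All 10 granulocyte and monocyte markers had lower values (median -1.17, 2 at an unadjusted p below 0.05), with sums of 478 to 3055 CPM against 1912 to 4732 CPM, and all 4 B cell markers tested had higher ones (median 1.21, 1 at an unadjusted p below 0.05). Their part in the result was not tested. The double knockdown also targets Kdr, and the share of Bmpr1a in these values cannot be told apart from it in this comparison.

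With the Kdr shRNA alone none of the 10 was called by edgeR (0.0149% of 20098 genes called) or DESeq2. At the unadjusted threshold 1 passed, Acvr1, lower at 5.38, 4.15, 3.27 and 3.63 CPM against 6.95 and 5.67 CPM, beside 6.76% of all genes. Id1 was at 2.03, 4.68, 4.84 and 2.84 CPM against 2.70 and 3.42 CPM, and Id2 at 18.3, 23.5, 16.0 and 13.4 CPM against 13.0 and 22.2 CPM, both overlapping. The difference between the double and the single knockdown response was called for none of the 10 (0% of 21250 genes called), with 3 at an unadjusted p below 0.05, beside 3.58% of all genes (Id1, Id2 and Id3, named after their values were seen), and none by DESeq2. Smad1 had means of 120 ± 8.72 CPM (SD, n = 4) in the double knockdown libraries and 117 ± 8.31 CPM (SD, n = 2) in the scramble libraries. Smad5 ranged from 104 to 114 CPM in the double knockdown libraries and from 110 to 116 CPM in the scramble libraries.

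Of the 59 other pathway genes none was called in the Kdr knockdown (6 of 30 at an unadjusted p below 0.05, beside 8.90% of all genes), in the double knockdown (4 of 28, beside 9.85%) or in their difference (3 of 33, beside 3.58%). All 10 HSC markers were at or above 1 CPM on average in each group, with sums of 2626 to 3544 CPM. In the Kdr knockdown all 10 had lower values (median log2 fold change -0.26), 6 of them at an unadjusted p below 0.05 by edgeR. Of 4 B cell markers tested (median 2.21) 2 were at that level, and of 10 granulocyte and monocyte markers (median 0.37) 2 were. None of these markers was called there, and their part in the result was not tested. The transplanted cells were made and sequenced apart from the diet libraries, and their levels were not compared with those of the diet groups.

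The histone marks were read at the promoters in OCR HSCs, and the 10 genes fell apart by H3K27me3, the mark of Polycomb repression, which at active genes is low. H3K4me3 marks active or poised starts. Signal is per base after scaling to the same number of reads in each library, in 750 bases after the TSS for H3K4me3 and 2000 bases for H3K27me3. Over 31552 promoters the medians of the 2 libraries were 10.2 and 9.64 for H3K4me3 and 0.312 and 0.316 for H3K27me3.

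H3K27me3 was high at 5 genes. Bmpr1a had 2.61 and 3.40 in the 2 libraries, at the 89.5 and 91.7 percentiles of promoters, with H3K4me3 of 26.1 and 21.1. Bmp4 had H3K27me3 of 2.79 and 2.71 with H3K4me3 of 11.8 and 11.9. Smad6 had H3K27me3 of 2.30 and 2.41, and Id1 had 2.54 and 2.17, with H3K4me3 of 24.8 and 22.7 and of 19.6 and 18.1. Id3 had H3K27me3 of 2.22 and 2.19 with the lowest H3K4me3 of the 5, 7.69 and 10.1.

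H3K27me3 was lower at the other 5, below the median of promoters at 4 of them and above it at Acvr1. Id2 had 0.180 and 0.244 with H3K4me3 of 32.0 and 31.0, Smad1 had 0.117 and 0.172 with 44.9 and 41.3, and Bmpr2 had 0.121 and 0.162 with 37.1 and 32.4. The 3 starts of Smad5 lay at 0.0574 to 0.303 for H3K27me3 and 19.6 to 24.7 for H3K4me3. Acvr1 had H3K27me3 of 0.458 and 0.457 and H3K4me3 of 22.5 and 17.0 at one start, and H3K4me3 of 0.253 and 0.480 at the other.

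By a cut chosen after the values were seen, H3K27me3 above the 75 percentile of promoters in both libraries, 5 of the 10 genes were marked, beside 22.8% of all promoters. A gene was counted by any of its starts, so the 2 shares differ in unit. The 70 promoters of the other pathway genes had a median H3K27me3 at the 87.1 and 85.1 percentiles in the 2 libraries. High H3K27me3 is thus not particular to these 10 genes. The genes Bmp4, Bmpr1a, Id1 and Smad6 also had H3K4me3 in the upper part of promoters, above the median in both libraries, beside 6.46% of all promoters. Of the 3 genes that were lower in OCR than in OAL, Bmp4 and Bmpr1a were thus in this class and Id2 was not. Bmp4, Bmpr1a, Smad6 and Id1 were also the genes called between OAL and YAL, an overlap seen after the values were known and given without a test. Only OCR libraries entered, so no change of either mark with diet or age can be given.

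**Figure D4:**
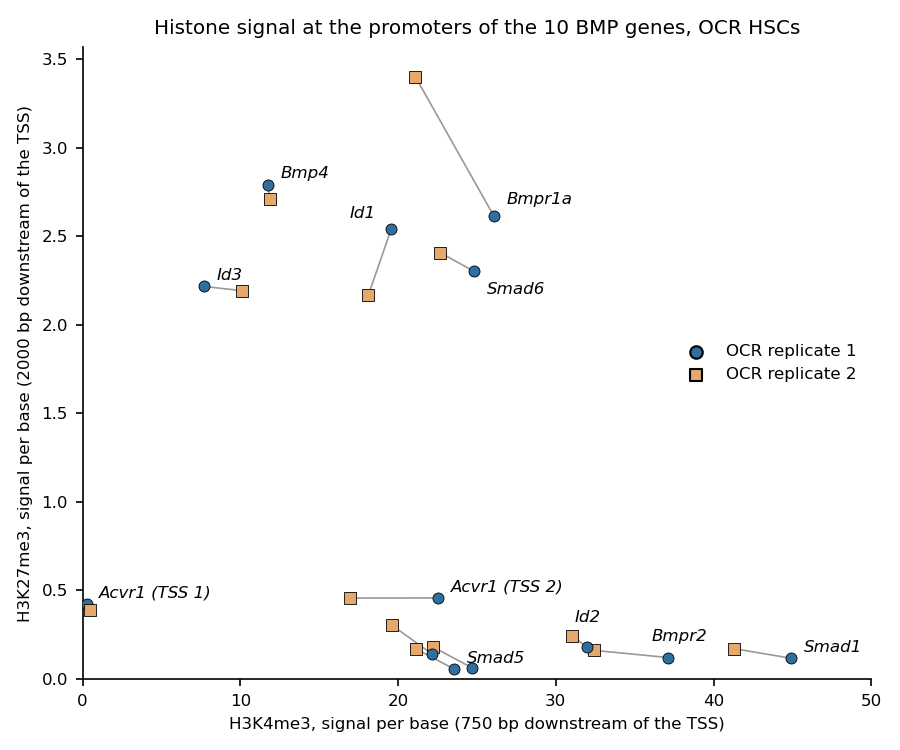
H3K4me3 (x axis) and H3K27me3 (y axis) signal per base at the starts of the 10 genes in the 2 OCR libraries of each mark; a line joins the libraries of a start, circles are replicate 1 and squares replicate 2. Bmpr1a, Bmp4, Smad6, Id1 and Id3 lie above 2 for H3K27me3 and all other starts below 0.5.

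Open chromatin was compared between OCRRF and OCR. All 10 genes had an ATAC peak within 1 kb of a start, 13 peaks in all, and none was called, where a call needed a mean log2 CPM above 1.5, a fold change above 1.5 and an adjusted p below 0.05. In all, 0.221% of 123372 peaks were called. Log2 fold changes of the 13 ran from -0.19 to 0.45, with a median of 0.12 beside -0.0064 over all peaks, and 4 were at an unadjusted p below 0.05 with edgeR, beside 11.7% of all peaks, none after adjustment with DESeq2. The peak at the Bmp4 start (chr14:46390222-46390825), named after its values were seen, was at 12.2, 13.5, 15.9 and 12.5 CPM in OCR and at 19.3 and 17.7 CPM in OCRRF, without overlap (edgeR adjusted p = 0.0804). It covers most of the Bmp4 promoter printed above. The Bmpr1a peak (chr14:34501699-34503548) was at 27.9, 26.9, 26.1 and 29.3 CPM in OCR and 32.6 and 29.2 CPM in OCRRF, where the ranges overlapped. Reads in peaks were 15721335 to 19558148 per library.

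PU.1, the transcription factor that directs myeloid and B cell genes, had peaks within 10 kb of a start at 2 of the 10 genes, each in OCR replicate 1 only. The peak at Id3 (chr4:136143496-136143787) had its summit at -213 bases from the TSS, a fold enrichment of 8.88 and a -log10 q of 10.6. The peak at Acvr1 (chr2:58574083-58574304) had its summit at -7343 bases from the TSS, with a fold enrichment of 5.81 and a -log10 q of 4.65. OCR replicate 1 had the most peaks, 5464, against 2262 to 3852 in the other libraries, and 11.4% of 24328 genes had a peak within 10 kb there, against 4.79% to 8.16% elsewhere. With 10 genes and 1 library each, the peaks are no difference between groups. No PU.1 peak was within 10 kb of Bmpr1a, Bmp4 or Id2 in any of the 6 libraries.

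The genes most like Bmpr1a, Bmp4 and Id1 in pattern were ranked by Pearson's r of log2 CPM over the 22 diet libraries, among 12325 genes of at least 5 CPM on average. The libraries share depth and age groups, so these are descriptions. Nearest to Bmpr1a were A530040E14Rik (r = 0.934), Tdrd9 (0.931), C130026I21Rik (0.926), Gpr183 (0.883) and Cysltr2 (0.881). Kdr, the receptor knocked down beside it, was at rank 433 (r = 0.552). Nearest to Bmp4 were Tmem176a (0.828), Gda (0.808), Pfkfb3 (0.793), 1810073O08Rik (0.788) and Hacd4 (0.785). Nearest to Id1 were Ciz1 (0.796), Oas1a (0.789), Mvd (0.784), Med24 (0.761) and 4930523C07Rik (0.760).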

How the data were processed

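Members and gene lists were chosen with earlier results of these data known. For RNA-seq, the authors trimmed reads with cutadapt, mapped them to mm10 with STAR, counted them per GENCODE gene with featureCounts and deposited raw counts. Treatment of strand and of multi-mapping reads is not given in the sources used here; 74.7% to 88.9% of counts from 2 to 10 were even, so both mates of a pair were probably counted. The labels name polyA RNA and a total RNA kit, the paper another kit. The authors deposited ATAC-seq read counts in consensus peaks, histone signal scaled to a common number of reads, and PU.1 peaks called per library with MACS2, with fold enrichment (a ratio), -log10 q and a peak score that was not used. The PU.1 antibody of replicate 2 is known only from its deposited name. OAL libraries of ATAC-seq and histone marks were not analysed here.

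Counts were tested with edgeR 4.0.16 (quasi-likelihood, TMM, filterByExpr) on the groups compared, adjusted over all genes by Benjamini-Hochberg, and called at an adjusted p under 0.05 with over 1.2-fold change, and both Bmpr1a hairpins as 1 group. DESeq2 1.42.0, other scalings and filters, 1 fit of all diet groups, leaving out each library and blocking on the replicate number were alternatives. Fold changes are printed for the 10 genes where called, and for Bmpr1a and Kdr in the knockdowns; pathway genes are named where called in OCR vs OAL, and a few others were named after their values were seen, as stated there or here (Tcf3). No 2 libraries of a group agreed within sampling noise (41 pairs, chi-square per degree of freedom 8.17 to 336). The fits were tested on simulated data. The result of 1 marker gene is not reported here.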

Additional observations from a re-analysis of the deposited data

Results flagged for a closer look

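Id3 in OCR replicate 1 stood apart from the rest of its group, at 1.33 CPM beside 0.959, 0.997 and 1.02 CPM in the other OCR libraries, with a gap of 0.834 of the group's range, just past Dixon's limit for 4 samples. It was 1 of 60 sets of 4 libraries checked, of which chance flags about 1 in 20.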

How the results depend on the processing

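In OCR vs OAL 3 genes were called under every alternative except 1 fit of all 6 diet groups, where Bmpr1a was lost and 2 remained, and without each library in turn 3 were called. In OCRRF vs OCR the count of 2 became 1 with DESeq2's size factors and 0 in 1 fit of all diet groups, and was 0 to 2 with a library left out. In OCRRF vs OAL the count of 3 became 0 with TMM from genes of at least 5 CPM and 0 in 1 fit of all diet groups, and was 0 to 1 with a library left out. In YCRRF vs YCR the count of 0 became 1 with DESeq2 and 1 in 1 fit of all diet groups. In OAL vs YAL it was 2 to 5 with a library left out, 5 with DESeq2, its size factors, TMM from genes of at least 5 CPM at least 10 counts in every library or no fold threshold, each adding Smad1, and 3 in 1 fit of all diet groups, where Bmp4 was lost (adjusted p 0.112), and that TMM setting moved the median of all genes from 0.05 to 0.16 on the log2 scale. At an unadjusted p below 0.05 the count was 1 in the Kdr knockdown and 4 in the double knockdown, where DESeq2 gave 1. Bmpr1a in the Kdr knockdown ran from -0.66 to 0.27 with a library left out and turned to 0.03 without Kdr shRNA replicate 1 and to 0.27 without scramble replicate 1, and Kdr there passed with DESeq2 (adjusted p 0.00347) and with no filter (0.0484). The causes were not tested.

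Same-numbered libraries of compared groups had correlations of deviations from -0.29 to 0.19. In a group of 2 libraries the deviations mirror each other, so pairing cannot be decided from them there. In OCR vs OAL, with 4 libraries a group, same-numbered libraries had -0.14 to 0.08 and others -0.17 to 0.20, so the same number gave no greater likeness. With the replicate block the counts were 3 in OCR vs OAL, 2 in OCRRF vs OCR, 3 in OCRRF vs OAL, 3 in OAL vs YAL (Bmp4 lost, adjusted p 0.0616) and 0 in the others. Id3 had 0 to 88 reads in a young library, which limits what can be read from it.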
